A study of Mus musculus with 4 samples.

Results

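Solute carrier (Slc) genes were followed in RNA sequencing libraries of activated lung group 2 innate lymphoid cells (ILC2s). The genes were chosen by their level in these same libraries, as the protein-coding genes with a symbol starting in Slc and a number whose mean over the 4 libraries of the authors' normalized table was at least 2. A value of 2 corresponds to 56.6 to 62.2 read counts, depending on the library, and single libraries can lie below the mean. It left 187 of 279 protein-coding Slc genes, from 45 families, among 22558 genes in all. For 4 of the 187 the symbol names a gene that carries no solute itself: Slc9a3r1 and Slc9a3r2 are scaffold proteins that bind sodium/proton exchangers, and Slc7a6os and Slc4a1ap are named after a neighbour or a binding partner.

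There were 2 WT libraries from C57BL/6 mice (WT 1 and WT 2) and 2 libraries from mice labelled ICAM-1 KO (KO 1 and KO 2), a line that carries the Icam1tm1Jcgr allele in all its cells. All mice were 6 weeks old and had received 0.5 µg rmIL-33, the cytokine that activates ILC2s, by the intranasal route on 3 consecutive days. Lungs were taken on day 4, cells negative for lineage markers and positive for CD45, ST2 and CD127 were sorted, and each library was made from a pool of 4 mice. The comparison asks how the transcriptome of activated ILC2s differs when the adhesion molecule ICAM-1 is lacking. Icam1 RNA did not fall with the label: WT 1 held 2579 counts, WT 2 held 2630, KO 1 held 2812 and KO 2 held 3453, and the log2 fold change was 0.33 (edgeR adjusted p = 0.0745). A targeted allele can still yield RNA, so Icam1 RNA does not check the labels here, and KO stands here for the label alone.

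Solute carriers move amino acids, sugars, nucleosides, vitamins, metals and inorganic ions across the plasma membrane and organelle membranes, mostly by facilitated diffusion, exchange, or coupling to a sodium or proton gradient. Some work as pairs of proteins: Slc3a2 is the heavy chain that carries several Slc7 light chains to the cell surface, and Bsg and Emb do the same for lactate carriers of the Slc16 family. Activated lymphocytes are known to raise uptake of glutamine, large neutral amino acids and glucose and to export lactate, and ILC2s are known to take up amino acids and lipids when they expand.

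The 4 libraries held 24796148 to 28782471 counts each. All 10 genes that define ILC2s were detected in every library, with a summed normalized count of 4446 to 5488. The lowest were Il13 (11.1 to 35.2) and Thy1 (22.4 to 24.2). Of these 10 markers 1 was higher and 3 were lower in the KO libraries. Markers of other lung cells were also present and most moved with the labels. All 10 endothelial markers were higher in the KO libraries, with summed normalized counts of 159 and 161 in WT against 395 and 425. For alveolar epithelium 7 of 9 tested markers were higher (148 and 136 against 598 and 1096, with Sftpb at 0 counts in WT 2), and for macrophages and monocytes 7 of 8 (260 and 259 against 526 and 793). T cell markers were higher for 4 of 6, B and plasma cell markers for 3 of 5, and neutrophil markers for 2 of 3, with Ly6g at 0 in WT 1. Of 3 tested eosinophil markers 2 were lower and 1 was higher, with Epx at 0 counts in both KO libraries. None of the tested fibroblast, airway or erythroid markers passed an adjusted p of 0.05. In such bulk libraries a change in the share of a cell type and a change in RNA per cell cannot be told apart. The part that these other cells had in the differences below was not tested, and p-values measure only the spread between 2 pools per label.

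The 187 genes took 1.05% and 1.01% of all counts in the WT libraries and 1.03% and 1.01% in the KO libraries. Levels of different genes are given as normalized counts per kb of exon. On this scale the median of the 187 genes was 3.96 and the range 0.177 to 521, beside a median of 6.69 over all tested protein-coding genes. The 10 highest genes held 49.8% of the summed level. The level chose the genes, so this order is a description.

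The highest was Slc25a5, the adenine nucleotide translocase that exchanges ADP and ATP across the mitochondrial inner membrane, at 521 per kb. The next was Slc3a2 at 124, followed by the scaffold Slc9a3r1 at 112. The paralogue Slc25a4 (97.3) and the mitochondrial phosphate carrier Slc25a3 (94.4) came next and stood close together, as KO values of Slc25a4 fell below and its WT values above those of Slc25a3. The large neutral amino acid light chain Slc7a8 stood at 70.7 and the mitochondrial oxoglutarate carrier Slc25a11 at 62.0. The zinc transporter of the endoplasmic reticulum Slc39a7 (53.6), the glutamine and neutral amino acid exchanger Slc1a5 (50.9) and the sugar transporter Slc50a1 (49.4) ended the list, and the ranges of these 3 genes over the libraries overlapped. Transport groups were set by SLC family number, not by the cargo of each gene. The 35 mitochondrial carriers took 31.5% of the counts of the 187 genes and the 30 amino acid and peptide genes took 25.4%. The 21 nucleotide sugar genes took 9.92%, the 26 metal genes 8.4% and the 14 sugar genes 4.21%.

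**Figure D1:**
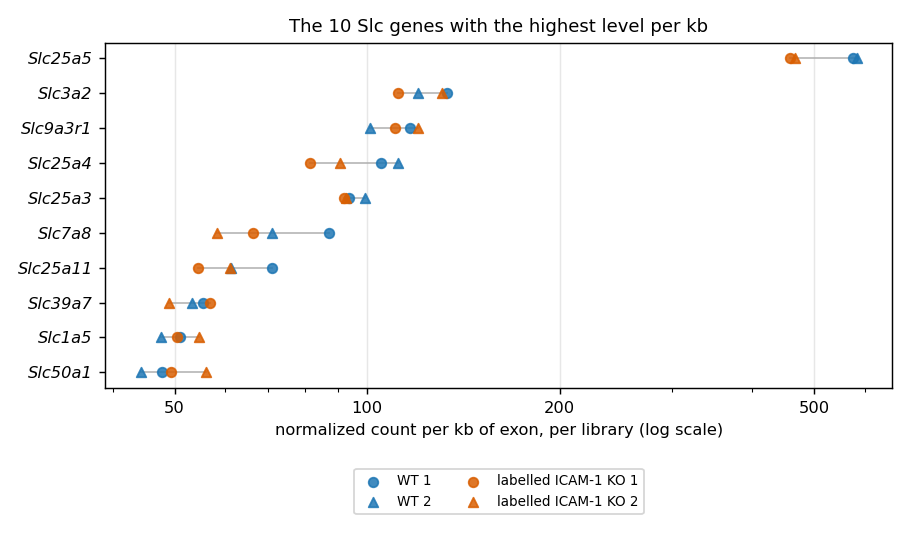
Normalized count per kb of exon in each library (x axis, log scale) for the 10 Slc genes with the highest mean level per kb (y axis), with circles and triangles for replicates 1 and 2, WT in blue and libraries labelled ICAM-1 KO in orange. Slc25a5 stands apart at a mean of 521 per kb, and the other 9 genes lie between means of 49.4 and 124.

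Few Slc genes differed between WT and the libraries labelled ICAM-1 KO, and in every transport group most of the tested genes did not pass the test. Of 183 genes tested, 8 (4.37%) were called higher in the KO libraries and 1 (0.546%) was called lower. A call needs a change of at least 2-fold and an adjusted p under 0.05 in the fit of all 4 libraries. Over all 11711 genes tested 4.94% were called higher and 0.538% lower, so the share of called Slc genes was near that of all genes. The called genes were Slc34a2, Slc16a9, Slc9a3r2, Slc28a2, Slc26a11, Slc5a3, Slc7a7 and Slc9a7 on the higher side and Slc38a7 on the lower side. With no limit on the fold, 13 genes (7.1%) were higher and 8 (4.37%) were lower, beside 8.8% and 4.97% of all genes. The counts per transport group below are to be read beside these shares of all genes, and most of the groups are small.

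The median log2 fold change was 0.05 over the 183 genes and 0.01 over all genes tested, and 150 of the 183 changed by less than 1.5-fold. Both KO libraries lay above both WT libraries for 55 genes (30.1%, against 28.3% of all genes) and below for 50 (27.3%, against 31.3%). The 4 genes not tested fell under a filter on a summed normalized count of 10: Slc16a7, Slc24a3, Slc29a2 and Slc40a1. For 6 genes the WT mean alone was under the limit of 2, among them Slc34a2, and for 2 genes the KO mean was, so these 8 were included through the group in which they were higher. Without WT 1 the called genes numbered 5 higher and 0 lower, without WT 2 they were 8 and 0, and when genes with low counts were kept in the fit they were 4 and 0.

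Promoters are shown for 4 genes picked by adjusted p. Slc9a3r2, Slc34a2 and Slc38a2 had the smallest values among the genes that were higher, and Slc19a1 had the smallest among those that were lower. Each run is 300 bases of RefSeq sequence (GRCm38.p6), 250 before to 50 after the start of transcription, 5′ to 3′ on the strand of the gene, and capitals mark GGGCGG or its reverse complement, the letters of a GC box.
Slc9a3r2: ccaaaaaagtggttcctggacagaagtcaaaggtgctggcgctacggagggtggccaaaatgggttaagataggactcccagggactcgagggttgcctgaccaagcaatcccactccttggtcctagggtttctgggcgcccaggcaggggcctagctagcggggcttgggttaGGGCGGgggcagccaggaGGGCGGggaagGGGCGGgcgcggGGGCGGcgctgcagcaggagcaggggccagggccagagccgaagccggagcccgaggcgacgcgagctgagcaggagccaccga
Slc34a2: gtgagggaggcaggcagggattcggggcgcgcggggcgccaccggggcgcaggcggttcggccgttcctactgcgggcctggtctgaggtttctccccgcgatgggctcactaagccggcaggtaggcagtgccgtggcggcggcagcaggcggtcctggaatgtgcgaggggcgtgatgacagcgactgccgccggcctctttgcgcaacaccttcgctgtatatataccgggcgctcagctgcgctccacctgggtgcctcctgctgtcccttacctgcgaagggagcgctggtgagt
Slc38a2: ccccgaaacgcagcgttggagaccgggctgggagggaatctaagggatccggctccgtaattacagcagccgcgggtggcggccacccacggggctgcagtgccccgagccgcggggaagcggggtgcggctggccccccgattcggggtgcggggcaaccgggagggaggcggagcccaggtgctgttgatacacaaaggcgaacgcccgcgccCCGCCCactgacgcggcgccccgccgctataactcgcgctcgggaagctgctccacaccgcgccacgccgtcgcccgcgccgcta
Slc19a1: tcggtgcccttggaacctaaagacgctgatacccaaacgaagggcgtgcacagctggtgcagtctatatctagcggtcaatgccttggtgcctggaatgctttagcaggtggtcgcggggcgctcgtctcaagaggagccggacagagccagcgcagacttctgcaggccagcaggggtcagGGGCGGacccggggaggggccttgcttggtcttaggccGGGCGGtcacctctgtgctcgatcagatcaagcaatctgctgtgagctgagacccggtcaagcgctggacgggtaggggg
These windows are chr17:24650256-24650555 on the minus strand, chr5:53049103-53049402 on the plus strand, chr15:96699679-96699978 on the minus strand and chr10:77032489-77032788 on the plus strand, in that order. GGGCGG, read on both strands, stood 4 times in the Slc9a3r2 window, 2 times in that of Slc19a1, 1 time in that of Slc38a2 and not in that of Slc34a2. It was present in 35.7% of 32851 windows of this length. Other motifs were also read on both strands. The E-box CACGTG was in none of the 4 windows and in 7.15% of all windows. The same held for the CCAAT box, present in 37.4% of all windows, and for the TATA box letters TATAAA, present in 13.6%. Other forms of the TATA box were not searched, and the Slc34a2 window holds a run of TA repeats. The RefSeq start of Slc34a2 lies 11272 bases inside the gene as the deposited tables place it, and that of Slc19a1 lies 498 bases inside, so other starts exist for both. A match or its absence is a description of these letters only.

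Amino acid and peptide genes moved in both directions. Of 30 tested, 2 were higher (Slc38a2 and Slc7a7), 2 were lower (Slc38a7 and Slc15a3) and 26 did not pass, with a median log2 fold change of 0.01. Slc38a2, a sodium-coupled carrier of small neutral amino acids on the plasma membrane (chr15:96687392-96699730, minus strand), had normalized counts of 114 in WT 1, 114 in WT 2, 176 in KO 1 and 173 in KO 2. The KO libraries lay far above the WT libraries relative to the gap within either label, and the log2 fold change was 0.64 ± 0.09 (SE; edgeR adjusted p = 0.00335). It stayed under an adjusted p of 0.05 with any 1 library left out.

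Slc7a7, a light chain that exchanges cationic for neutral amino acids (chr14:54369442-54417780, minus strand), had normalized counts of 5.67 and 3.69 in WT 1 and WT 2 and 12.4 and 9.46 in KO 1 and KO 2. The groups did not overlap (log2 fold change 1.25 ± 0.32, edgeR adjusted p = 0.0353), but the adjusted p was 0.0595 to 0.151 without WT 1, WT 2 or KO 1. It overlaps Oxa1l on the other strand, and the strand setting of the counting is not given in the sources used here. Slc38a7, which exports glutamine from lysosomes (chr8:95835920-95853539, minus strand), had 8.02 and 11.7 in WT 1 and WT 2 against 4.72 and 3.57 in KO 1 and KO 2. Both KO libraries were lower, by a log2 fold change of -1.24 ± 0.34 (edgeR adjusted p = 0.0423), with an adjusted p of 0.0549 to 0.188 without WT 1, WT 2 or KO 2. Slc15a3, a lysosomal carrier of histidine and small peptides, fell by 0.57 on the log2 scale (edgeR adjusted p = 0.032), from 49.2 and 56.4 to 37.6 and 32.5. Its adjusted p was 0.0581 to 0.138 without WT 1, WT 2 or KO 2, and it overlaps Tmem132a on the other strand.

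Several well-known amino acid carriers of activated lymphocytes did not pass the test. The heavy chain Slc3a2 had normalized counts of 470 and 424 in WT 1 and WT 2 and 394 and 463 in KO 1 and KO 2. These values overlapped, with a log2 fold change of -0.03 ± 0.10 (edgeR adjusted p = 0.863). Its light chain Slc7a8 was at 437 and 356 against 332 and 291 (-0.32, adjusted p = 0.0943), and the light chain Slc7a5, which falls outside the rule for named genes and was picked after its values were seen, at 98.3 and 122 against 82.9 and 91.6 (-0.31, adjusted p = 0.142). Both KO libraries were below both WT libraries for Slc7a8 and Slc7a5, as they were for 31.3% of all genes tested. The other tested Slc7 carriers did not all move this way. Both KO libraries were higher for Slc7a7 (log2 fold change 1.25) and Slc7a11 (1.04) and lower for Slc7a1 (-0.19) and Slc7a3 (-0.56). The values of Slc7a2, Slc7a4 and Slc7a6 overlapped between the labels. Slc1a5 was at 213 and 199 against 210 and 228 (0.12, adjusted p = 0.432).

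Among 14 sugar genes 1 was higher and 13 did not pass, with a median log2 fold change of 0.05. Slc5a3, the sodium-coupled carrier of myo-inositol (chr16:92058322-92087473, plus strand), had normalized counts of 4.34 and 5.78 in WT 1 and WT 2 and 13.1 and 12.1 in KO 1 and KO 2. Both KO libraries were higher (log2 fold change 1.33 ± 0.28, edgeR adjusted p = 0.0167), and without WT 1 the adjusted p was 0.0792. It overlaps Mrps6 on the same strand, so reads may be split between the 2 genes. The glucose transporter Slc2a1 was at 75.4 and 88.2 in WT and 73.4 and 62.9 in KO (-0.24, edgeR adjusted p = 0.239). For Slc50a1 the values were 70.1 and 65.0 against 72.3 and 82.0 (0.22, adjusted p = 0.247).

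Monocarboxylate carriers moved in opposite directions. Of 7 genes 6 were tested, with 1 higher and 1 lower. Slc16a9, a member of this family linked to carnitine transport (chr10:70245100-70285968, plus strand), had normalized counts of 3.5 in WT 1, 1.12 in WT 2, 13.2 in KO 1 and 13.4 in KO 2. These were 105, 34, 378 and 419 read counts, so the KO libraries agreed closely and the WT libraries differed from each other. The log2 fold change was 2.58 ± 0.41 (edgeR adjusted p = 0.00577), and it was 3.64 without WT 1 and 1.96 without WT 2, with an adjusted p under 0.05 in both cases. Slc16a3, which exports lactate from glycolytic cells and was picked after its values were seen, fell by 0.56 on the log2 scale (edgeR adjusted p = 0.0437), from 62.2 and 51.6 to 34.4 and 41.4. Its adjusted p was 0.0606 to 0.191 without WT 1, WT 2 or KO 1. The lactate and pyruvate carrier Slc16a1 was at 82.7 and 89.0 against 72.0 and 73.0 (-0.22, adjusted p = 0.201). Its chaperones Bsg (-0.26, adjusted p = 0.0784) and Emb (-0.13, adjusted p = 0.322) did not pass either.

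Nucleoside and vitamin carriers gave 1 gene in each direction. Slc28a2, which takes up purine nucleosides with sodium (chr2:122426477-122461137, plus strand), had normalized counts of 5.78 and 7.46 in WT 1 and WT 2 and 21.4 and 17.9 in KO 1 and KO 2. The lower KO library was above the higher WT library by more than the gap within either label, and the log2 fold change was 1.60 ± 0.25 (edgeR adjusted p = 0.00538), an adjusted p that stayed under 0.05 with any 1 library left out. The equilibrative carrier Slc29a1, the highest of the 4 nucleoside genes, was at 148 and 158 in WT and 116 and 123 in KO (-0.33, edgeR adjusted p = 0.0521), and the 2 other nucleoside genes were Slc29a3, which did not pass, and Slc29a2, which was not tested.

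Slc19a1, the reduced folate carrier (chr10:77032241-77061002, plus strand), had normalized counts of 90.4 and 82.2 in WT 1 and WT 2 and 56.0 and 50.7 in KO 1 and KO 2. Both KO libraries were lower, with a log2 fold change of -0.67 ± 0.12 (edgeR adjusted p = 0.0082). It was the 1 gene among the 8 that fell whose adjusted p stayed under 0.05 with any 1 library left out (0.00383 to 0.0491). The gene overlaps Col18a1 on the other strand. The other 7 vitamin and heme genes did not pass.

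The group of phosphate, sulfate and vesicular anion genes included the gene with the largest change. Slc34a2, a sodium-phosphate cotransporter known from alveolar type II cells (chr5:53038081-53071664, plus strand), had normalized counts of 1.32 in WT 1, 0.0317 in WT 2, 20.7 in KO 1 and 29.7 in KO 2. These were 39, 0, 596 and 932 read counts, so the gene was close to absent in WT and present in both KO libraries. The log2 fold change was 5.34 ± 0.55 (edgeR adjusted p = 0.00098). It was 4.32 without WT 2, and without WT 1 the WT side held 0 counts and no fold is given. DESeq2 gave an adjusted p of 0.157. With a WT mean of 0.676 and a KO mean of 25.2 it was included through the KO libraries alone, so its place among the 8 called genes says nothing about Slc genes in general. Of the 10 alveolar epithelial markers Sftpc, Sftpb, Sftpa1, Sftpd, Lamp3 and Ager had the same order over the libraries. Napsa, Hopx, Epcam and Cdh1 did not, as WT 2 was above WT 1. In WT 1, WT 2, KO 1 and KO 2 the surfactant gene Sftpc was at 24.2, 0.57, 253 and 537. The lamellar body gene Lamp3 was at 0.43, 0.0633, 5.53 and 11.0, and Napsa at 32.6, 32.8, 64.2 and 69.0. The part of alveolar RNA in the Slc34a2 values was not tested. The ubiquitous phosphate importer Slc20a1 was at 58.9 and 58.5 against 57.4 and 45.3 (-0.17, edgeR adjusted p = 0.447), and of the 6 genes of this group Slc34a2 alone passed.

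**Figure D2:**
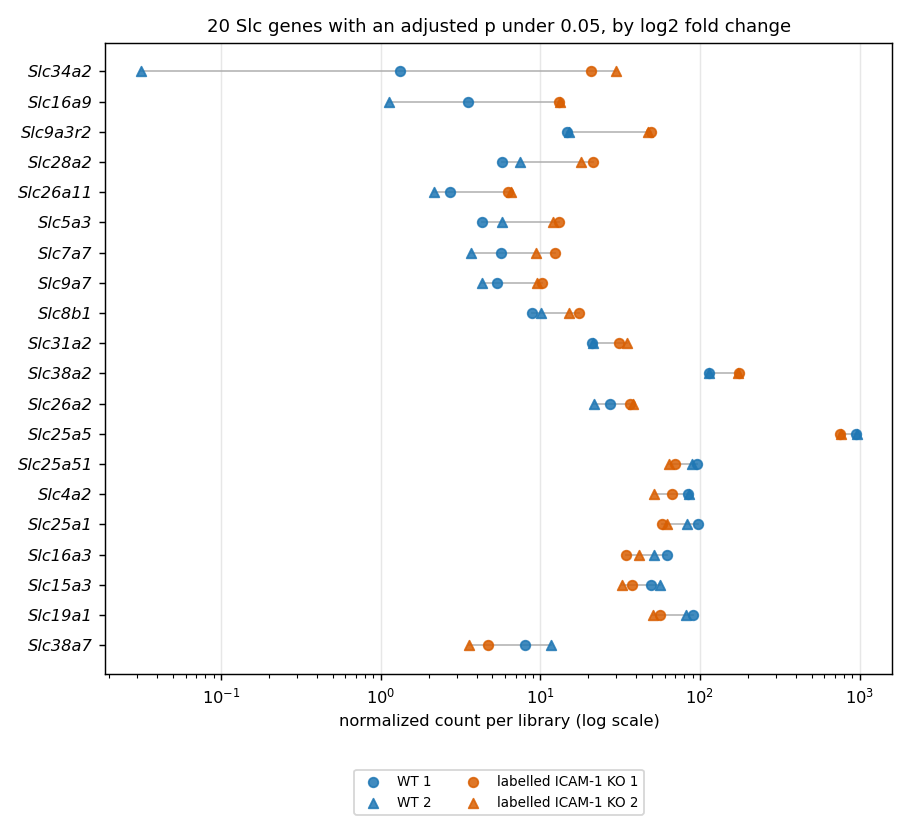
Normalized count in each library (x axis, log scale) of 20 of the 21 Slc genes with an adjusted p under 0.05, ordered by log2 fold change (y axis), with circles and triangles for replicates 1 and 2, WT in blue and libraries labelled ICAM-1 KO in orange. The genes were drawn because they passed the test, so WT and KO points that do not overlap in all 20 are no further support. Over all genes tested both KO libraries lay above both WT libraries for 28.3% and below for 31.3%. Slc34a2 and Slc16a9 show the widest spread between WT 1 and WT 2. The 0 counts of Slc34a2 in WT 2 are drawn at 0.0317, since the normalized values include 1 added count.

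Of 9 tested genes of sodium, proton and calcium exchange 2 were called higher, 1 of them a scaffold and no carrier, and 3 were higher with no fold limit, in a group too small to set against the 4.94% of all genes called higher. Slc9a3r2, a scaffold that anchors sodium/proton exchangers and other membrane proteins to the cytoskeleton (chr17:24639286-24650327, minus strand), had normalized counts of 14.6 and 15.0 in WT 1 and WT 2 and 49.3 and 47.5 in KO 1 and KO 2. Values within each label were nearly equal, and the log2 fold change was 1.73 ± 0.15, with the smallest adjusted p of all 183 genes (edgeR, 0.000496). With any 1 library left out the log2 fold change was 1.71 to 1.75. Its paralogue Slc9a3r1 was at 225 and 194 in WT and 213 and 231 in KO, values that overlapped (0.11, adjusted p = 0.502).

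Slc9a7, a sodium/proton exchanger of the trans-Golgi network (chrX:20105754-20291807, minus strand), was at 5.38 and 4.34 in WT 1 and WT 2 and at 10.3 and 9.59 in KO 1 and KO 2. Both KO libraries were higher (1.06 ± 0.29 on the log2 scale, edgeR adjusted p = 0.0423), and the adjusted p was 0.0865 to 0.157 when any 1 library was left out. The mitochondrial sodium/calcium exchanger Slc8b1, picked after its values were seen, rose from 8.82 and 10.1 to 17.6 and 15.1 (0.81 ± 0.23, adjusted p = 0.0481). Its adjusted p was 0.0752 to 0.198 when any 1 library was left out.

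The group of chloride and bicarbonate genes, set by family number, also held the sulfate carriers of the Slc26 family and Slc4a1ap, which is no carrier. Its median log2 fold change, 0.31, was the highest of the groups, beside 0.30 for phosphate, sulfate and vesicular anion genes. Of 14 tested, 3 (21.4%) were higher, 1 (7.14%) was lower and 10 did not pass. Over all genes tested 8.8% were higher and 4.97% lower, and the group is too small to set against these shares. Slc26a11, an anion exchanger that carries sulfate (chr11:119355557-119381079, plus strand), was at 2.71 and 2.15 in WT 1 and WT 2 and at 6.25 and 6.59 in KO 1 and KO 2. The groups did not overlap (1.44 ± 0.36, edgeR adjusted p = 0.0326), with an adjusted p of 0.0554 to 0.13 when any 1 library was left out.

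The sulfate transporter Slc26a2 rose by 0.63 (edgeR adjusted p = 0.0378), from 27.3 and 21.7 to 36.3 and 38.0, with an adjusted p of 0.0505 to 0.152 when any 1 library was left out. The chloride/bicarbonate exchanger Slc4a2 fell by 0.50 on the log2 scale (edgeR adjusted p = 0.0393), from 84.7 and 85.4 to 66.8 and 51.8. Its adjusted p was 0.12 to 0.198 without WT 1, WT 2 or KO 2, and it overlaps Fastk on the other strand. Slc4a7, which brings in bicarbonate with sodium, was at 72.3 and 86.0 in WT and 77.1 and 99.1 in KO (0.18, adjusted p = 0.444). The anion exchanger Slc26a4, picked after its values were seen, had a log2 fold change of 2.61 and did not pass (edgeR adjusted p = 0.0536). Its read counts were 47 and 1 in WT 1 and WT 2 against 87 and 196 in KO 1 and KO 2. With a WT mean of 0.824 and a KO mean of 4.67 it was included through the KO libraries alone.

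Mitochondrial carriers, which include the most abundant gene per kb, had 3 (8.57%) lower and 0 higher genes of 35 tested. Over all genes tested 4.97% were lower and 8.8% higher, and 3 genes are too few to set the group apart. Each of the 3 changed by less than 2-fold, and the group median log2 fold change was -0.01. Slc25a5 was at 947 and 959 in WT 1 and WT 2 and at 755 and 768 in KO 1 and KO 2, a small but even decrease of -0.30 ± 0.08 (edgeR adjusted p = 0.0387). The citrate carrier Slc25a1 was at 96.6 and 83.5 against 58.2 and 62.5 (-0.55, adjusted p = 0.0189). The NAD carrier Slc25a51 was at 95.5 and 88.7 against 69.9 and 64.4 (-0.43, adjusted p = 0.0326). Both KO libraries lay below both WT libraries in these 3 genes, which were picked by passing the test, and in 31.3% of all genes tested. Each of the 3 lost the adjusted p under 0.05 in fits with fewer libraries. With any 1 library left out the log2 fold change was -0.32 to -0.28 for Slc25a5. It was -0.65 to -0.44 for Slc25a1 and -0.48 to -0.38 for Slc25a51. The paralogue Slc25a4 was at 248 and 263 against 191 and 213 (-0.31, adjusted p = 0.0614). Slc25a3 was at 519 and 551 against 511 and 514 (-0.04, adjusted p = 0.804), and Slc25a11 at 151 and 130 against 116 and 129 (-0.17, adjusted p = 0.347). The largest positive value in the group was 0.57, which did not pass.

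Metal carriers gave 1 higher gene and 0 lower of 25 tested, with a median of 0.05. Slc31a2, which releases copper from endosomes and lysosomes, was at 21 and 21.5 in WT 1 and WT 2 and at 31.2 and 35 in KO 1 and KO 2. It was higher by 0.67 ± 0.16 on the log2 scale (edgeR adjusted p = 0.029), with an adjusted p of 0.0883 to 0.134 without WT 1, WT 2 or KO 2. Slc39a7, the highest of the group, was at 143 and 137 against 147 and 127, values that overlapped (-0.01, adjusted p = 0.968).

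No gene of 3 further groups passed. Among 21 genes grouped as nucleotide sugar genes by family number, log2 fold changes ran from -0.70 to 0.76 with a median of 0.08. This cargo is not known for all of them. The highest of them, Slc35a4, was at 162 and 154 in WT and 141 and 140 in KO (-0.15, edgeR adjusted p = 0.311), and the one with the smallest adjusted p, the orphan Slc35f6, at 6.83 and 9.40 against 14.0 and 13.1 (0.76, adjusted p = 0.0826). The 8 lipid, choline and bile acid genes had a median of -0.15, and Slc44a2, a choline transporter-like gene, was at 113 and 114 against 139 and 134 (0.29, adjusted p = 0.0644). Both KO libraries of Slc35f6 and Slc44a2 were above both WT libraries. The 3 organic ion genes included the carnitine importer Slc22a5 at 16.1 and 16.3 against 15.0 and 11.7 (-0.26, adjusted p = 0.468) and Slc22a17 at 5.15 and 3.17 against 5.55 and 7.49 (0.69, adjusted p = 0.243). The urea transporter Slc14a1, at 2.58 and 4.24 against 3.26 and 4.49, overlapped between the labels (0.22, adjusted p = 0.772).

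The size of a change that could be told from the spread depended on the level. The median standard error of the 183 log2 fold changes was 0.188, and 15 genes changed by at least 2-fold, of which 6 had an adjusted p that was not under 0.05. These 6 were Slc26a4, Slc41a2, Slc7a2, Slc7a11, Slc6a13 and Slc46a1, named after their values were seen, and their adjusted p ran from 0.0513 to 0.301. Just inside the limit that chose the genes stood Slc24a3 with a mean normalized count of 2.08 and Slc16a7 with 2.09, and just outside stood Slc15a2 with 1.92.

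**Figure D3:**
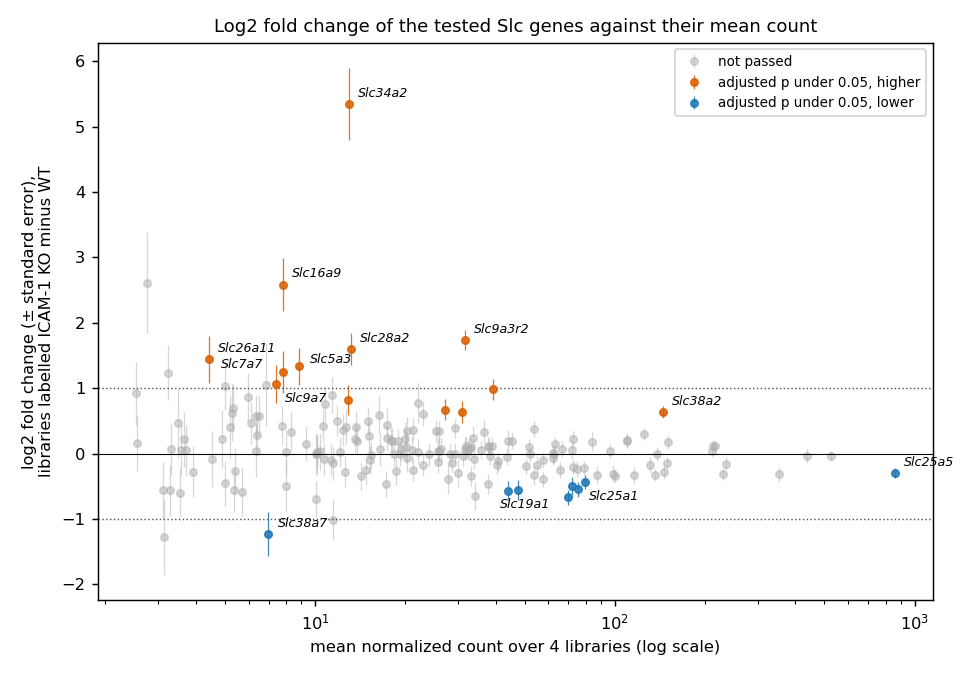
Log2 fold change with its standard error, libraries labelled ICAM-1 KO minus WT (y axis), against mean normalized count over the 4 libraries (x axis, log scale) for the 183 tested Slc genes, with orange and blue points for genes with an adjusted p under 0.05 and dotted lines at a 2-fold change. Genes called higher other than Slc9a3r2 have mean counts from 4.43 to 13.1, while Slc25a5 passed at 857 with a log2 fold change of -0.30.

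Other transport genes were read from 4 lists beside the Slc genes. Of 4 tested organic anion transporting genes of the Slco family 2 were higher and 1 was lower. This list is too small to set against the 8.8% higher and 4.97% lower of all genes. Slco2a1, the prostaglandin carrier, had normalized counts of 21.4 and 21.5 in WT 1 and WT 2 and 66.3 and 63.9 in KO 1 and KO 2, and rose by 1.63 ± 0.13 on the log2 scale (edgeR adjusted p = 0.000329). Of 28 tested ABC transporter genes 3 (10.7%) were higher and 1 (3.57%) was lower, near the shares of all genes. The efflux pump gene Abcb1a had 4.63 and 5.91 against 20.9 and 21.4 (2.03, adjusted p = 0.00165), and the cholesterol exporter Abca1 had 4.39 and 5.57 against 17.8 and 13.4 (1.67, adjusted p = 0.0079). Of 13 tested P-type pump genes 2 (15.4%) were higher, Atp1b3 (0.30) and Atp2a3 (0.48), and 0 were lower.

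Of 49 tested partners and regulators of transporters 5 (10.2%) were higher and 3 (6.12%) were lower, shares near the 8.8% and 4.97% of all genes. The largest change was that of Rragd, a GTPase of the lysosomal amino acid sensing complex, at 0.033 and 0.887 in WT 1 and WT 2 against 4.72 and 5.22 (3.52, edgeR adjusted p = 0.0134), with 0 read counts in WT 1. Arrdc3 and Txnip, arrestin-like genes that take transporters off the cell surface, were at 20.2 and 25.9 against 53.5 and 56.8 (1.29, edgeR adjusted p = 0.0019) and at 74.2 and 65.3 against 87.2 and 104 (0.48, adjusted p = 0.0381). Myc, a transcription factor known to raise nutrient transporter genes, was lower at 88.0 and 78.7 against 55.7 and 63.8 (-0.45, adjusted p = 0.0417), as were the arginine sensor Castor1 (-0.48, adjusted p = 0.0334) and the lysosomal scaffold Lamtor1 (-0.43, adjusted p = 0.038). The median log2 fold change over these 49 genes was 0.11, beside 0.01 over all genes tested.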

How the data were processed

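RNA was measured by sequencing in 4 libraries of sorted mouse ILC2s, grouped by the sample labels. The authors made cDNA with a low-input kit, aligned reads with STAR to mm10 with GENCODE annotation and deposited expected counts per gene, estimated by the E/M method of Partek, and a normalized signal made by upper quartile scaling. Per the labels' processing notes the tools were CASAVA 1.8.2, STAR and Partek. Each value of the deposited normalized signal equals the count plus 1 times 1 factor per library. Expected counts were rounded and tested with edgeR 4.0.16 (quasi-likelihood, upper quartile factors, no covariate) in R 4.3.3 for the 11711 genes with a mean normalized signal of at least 1 and a sum of at least 10, and p-values were adjusted over all of them by the Benjamini-Hochberg method. The fit was tested on simulated data. Alternatives used limma 3.58.1, DESeq2 1.42.0, other filters and 3 libraries.

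The depth was 24796148 to 28782471 counts per library. Lengths are union exons of GENCODE, and 5 Slc genes were matched by symbol alone. Coordinates are those of the deposited tables (mm10). RefSeq promoters were found for 142 of the 187 genes. The genes, the transport groups and the lists were chosen with earlier results of these data known. Genes were named as the 10 highest per kb, the called genes, the 10 smallest adjusted p among those changed less than 2-fold, the highest and the smallest adjusted p of each transport group, those next to the limit, and partner proteins, and 2 genes that this rule names are not reported here. The same replicate numbers occur in both labels. Nothing says that they pair the pools, so the main fit did not use them as pairs. WT 1 and KO 1 deviated from their group means with a correlation of -0.06. With 2 libraries per label this value cannot decide whether pools shared a day or a batch.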

Additional observations from a re-analysis of the deposited data

How the results depend on the processing

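The called genes were 8 higher and 1 lower, and several alternatives moved these counts. Higher calls were 4 with no filter on low counts, 5 with the filterByExpr filter, 13 with no fold limit and 5 to 8 with 1 library left out (5 without WT 1). Lower calls were 2 with TMM factors and with DESeq2, 0 with the older edgeR test, with no filter and with filterByExpr, 8 with no fold limit and 0 to 1 with 1 library left out (0 without WT 1 or WT 2). Genes named by the rule with an adjusted p under 0.05 were 19, and 8 with no filter, which tests 22158 genes in place of 11711, and 7 to 13 with 1 library left out. Of the 21 genes that passed, 8 kept an adjusted p under 0.05 with no filter, 13 with filterByExpr, 16 with the older edgeR test, 18 with at least 10 counts in every library, 20 with DESeq2, and 21 with TMM factors and with limma. With the replicate block 9 were called higher and 1 lower, and Slc8b1 alone of the 21 had an adjusted p over 0.05 (0.058). For single genes that did not pass, the sign changed with 1 library left out for 5: the log2 fold change ran from -0.165 to 0.087 for Slc3a2 (above 0 without WT 1 or KO 1), -0.079 to 0.0071 for Slc25a3 (without WT 2), -0.108 to 0.085 for Slc39a7 (without WT 1 or KO 2), -0.023 to 0.361 for Slc4a7 (below 0 without KO 2) and -0.097 to 0.630 for Slc14a1 (below 0 without WT 1 or KO 2). No other named gene changed sign under the alternatives run. Leaving out a library leaves 1 on its side, which is assumed to vary like the other label, and reduces the libraries from 4 to 3. A normalized value of 2 stands for 56.6 to 62.2 counts, depending on the library. The limit is on the mean of 4 libraries, so single libraries can hold far fewer, as Slc26a4 with 1 count in WT 2. Changes of low genes are thus measured least well.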

Other observations

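Below the level limit lay 92 protein-coding Slc genes, of which 69 are in the authors' normalized table and 23 are in the count table alone. They were chosen after their values were seen and carry no test. Slc26a9, a chloride transporter, had 0 read counts in WT 1 and WT 2, 41 in KO 1 and 21 in KO 2. Slc6a14, an amino acid carrier, had 0 and 0 in WT and 5 and 26 in KO. Slc35d3 had 0 and 0 in WT and 44 and 32 in KO, and Slc24a4 had 18 and 12 against 112 and 42. In the other direction Slc22a3, an organic cation carrier, had 69 and 41 in WT and 26 and 26 in KO. Slc4a4 had 40 and 16 against 7 and 1. These genes are single examples, and many others of the 92 overlapped between the labels. Slc1a3, a glutamate carrier, was seen in KO 2 alone, with 49 counts.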
